A study of Rattus norvegicus with 3 samples.

Results

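The neuregulins, the EGF-type ligands and the ErbB receptors were followed as 10 genes, taken from a list of names, out of 22608 genes of the mRNA table of rat sciatic nerve. They are the receptors Egfr, Erbb2, Erbb3 and Erbb4, the neuregulins Nrg1 and Nrg2, and the EGF-receptor ligands Hbegf, Tgfa, Btc and Areg. All 10 names were in the table, and 8 of them had a mean level of at least 1 CPM (the count of a gene scaled to a common library total) over the 3 libraries. Btc fell below that level and Areg had no count.

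All nerves came from male rats of the SD strain at day 30 after surgery, with 1 library per group. In sham the nerve was laid open but not hurt. In model the nerve was crushed with vascular forceps, and this library carries the treatment label control. In AKBA the nerve was crushed and the animal received AKBA, which stands for acetyl-11-keto-beta-boswellic acid, a compound of frankincense resin. The series has no AKBA-treated sham nerve, and neither the dose nor the number of animals behind a library is given in the sources used here.

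ErbB receptors are tyrosine kinases of the cell surface that work in pairs. ErbB2 has no known ligand of its own and the kinase of ErbB3 is weak, so that the pair of ErbB2 and ErbB3 is the receptor through which Schwann cells read neuregulin-1. Neuregulin-1 on the axon is known to govern the survival and migration of Schwann cells and the thickness of the myelin they make. EGFR, in contrast, is the receptor of TGF-alpha, HB-EGF, betacellulin and amphiregulin, and HB-EGF and betacellulin also bind ErbB4.

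The mRNA table summed to 74184217 counts for sham, 89505656 for model and 90071899 for AKBA. Levels are given below in the order sham, model and AKBA, and no group has a replicate, so no difference was tested and each comparison is one of libraries. Intervals are exact 95% limits and cover counting error only. CPM is not divided by transcript length, so levels are compared between libraries and not between genes. The median log2 ratio of all genes kept was 0.18 between model and sham, -0.04 between AKBA and model, and 0.16 between AKBA and sham. With TMM scaling these medians were -0.02, 0.005 and 0.009, so a member's ratio to sham is read against that shift. The libraries also differed in neighbouring tissue, with a summed level of the 12 skeletal muscle markers of 487, 1011 and 6847 CPM and of the 9 adipocyte markers of 11017, 6597 and 3239 CPM.

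The receptors did not move as a block. Erbb3 and Erbb2 were higher in both crushed nerves than in sham, Erbb4 was higher in the untreated crushed nerve alone, and the gene count of Egfr was lower in both. Among the ligands, Hbegf and Tgfa were highest in model, Nrg1 was highest in sham, and Btc was highest in AKBA.

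**Figure D1:**
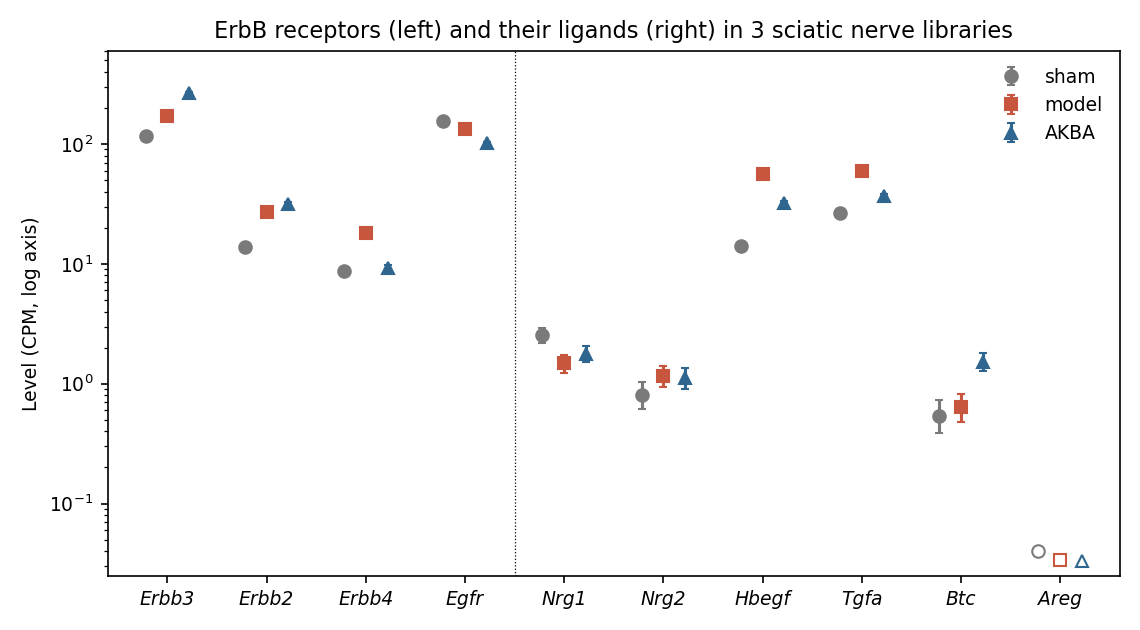
Level in CPM on a log axis of the 4 receptors (left of the dotted line) and the 6 ligands in the sham, model and AKBA libraries, with exact 95% Poisson intervals of the counts. Hbegf and Tgfa peak in model, and Erbb3 steps up from 116 to 171 to 269 CPM. The open symbols of Areg, which had 0 counts, stand at the floor of 3 counts, 0.0404, 0.0335 and 0.0333 CPM.

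In model against sham, 2 of the 8 members kept, Hbegf and Tgfa, were at least 2-fold higher, where 4.52% of all 14427 genes kept were. None of the 8 was at least 2-fold lower, against 1.31% of all genes. The median log2 ratio of the 8 members was 0.74. In AKBA against model, 0 of 8 were at least 2-fold higher (2.69% of all genes) and 0 of 8 lower by as much (1.37%), and their median was -0.20. In AKBA against sham, 3 of 8 were at least 2-fold higher (5.83% of all genes), namely Erbb3, Erbb2 and Hbegf, and 0 of 8 lower by as much (2.08%), and their median was 0.34. With TMM scaling 1 member was at least 2-fold higher in model against sham, Hbegf, where 2.61% of all genes were. With that scaling 1 was so in AKBA against sham, Erbb3, where 4.01% of all genes were. The 3 comparisons share libraries, so the same model library stands in the first and the second of them.

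**Figure D2:**
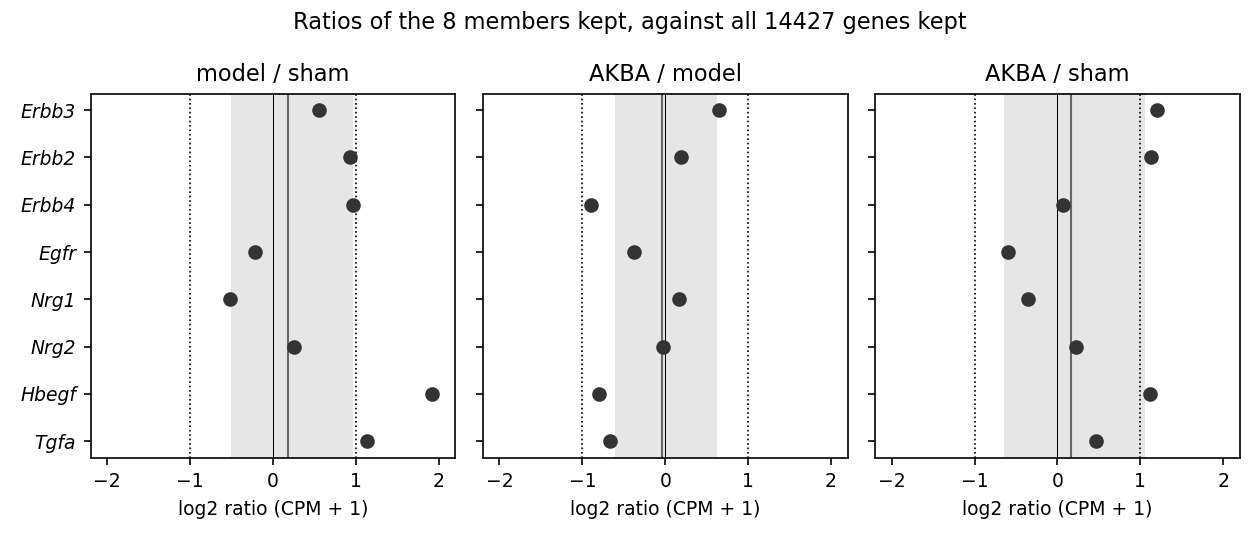
Log2 ratio of (CPM + 1) for the 8 members kept in the 3 comparisons. The grey band holds the middle 90% of all 14427 genes kept, the grey line is their median and the dotted lines mark 2-fold. Hbegf lies outside the band in all 3 panels, while Erbb3 lies beyond it in both AKBA panels. Tgfa and Erbb4 lie outside it in model against sham and in AKBA against model. Nrg1 does so in model against sham, and Erbb2 in AKBA against sham.

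Erbb3 encodes the neuregulin receptor of Schwann cells. It stood at 116, 171 and 269 CPM, on 8608, 15300 and 24226 counts. The level was lowest in sham and highest in AKBA, and the counting intervals of the 3 libraries did not overlap. The ratio was 1.47 for model to sham (interval 1.44 to 1.51), 1.57 for AKBA to model (1.54 to 1.61) and 2.32 for AKBA to sham (2.26 to 2.38). With TMM scaling the log2 ratio of model to sham was 0.34 in place of 0.555. That of AKBA to model was 0.70 in place of 0.65, and that of AKBA to sham 1.04 in place of 1.21. Of all genes kept, 688 had a ratio of AKBA to model at least as high as that of Erbb3.

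Erbb2, the partner that gives the pair its kinase activity, stood at 13.8, 27.3 and 31.3 CPM, on 1027, 2445 and 2823 counts. Both crushed nerves were above sham, and AKBA was above model by a small margin. The ratio was 1.97 for model to sham (interval 1.83 to 2.12) and 1.15 for AKBA to model (1.09 to 1.21). For AKBA to sham it was 2.26 (2.11 to 2.43), and with TMM scaling the log2 ratio of 0.97 fell short of 2-fold. Counts of Erbb2 per count of Erbb3 were 0.119 in sham (interval 0.112 to 0.127), 0.160 in model (0.153 to 0.167) and 0.117 in AKBA (0.112 to 0.121). The intervals of sham and AKBA overlapped, and model lay above both.

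Markers of Schwann cells were also higher in the crushed nerves. All 12 listed markers were kept, none was at 0 in any library, and their summed level was 18007, 41417 and 36520 CPM. In model against sham, 11 of the 12 were above 0 on the log2 scale, 6 of them at least 2-fold, and their median was 0.88. Of all genes kept, 71.0% were above 0 in this comparison and 4.52% at least 2-fold. Sox10, the transcription factor that defines the lineage, stood at 32.4, 77.3 and 107 CPM, whereas the calcium-binding marker S100b stood at 1226, 1476 and 985 CPM and the myelin protein gene Mbp at 3012, 1553 and 1335 CPM. In bulk tissue, more cells of a type and more RNA per cell cannot be told apart.

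Read per count of Sox10, Erbb3 was lower in the crushed nerves than in sham. It stood at 3.58 counts per count of Sox10 in sham (interval 3.42 to 3.74), 2.21 in model (2.15 to 2.28) and 2.52 in AKBA (2.46 to 2.58). For Erbb2 the figures were 0.427, 0.353 and 0.293 counts per count of Sox10. Against S100b the order was different, with 0.0947, 0.116 and 0.273 counts of Erbb3 per count of S100b. Against the myelin gene Pmp22 it was 0.0258, 0.0153 and 0.0286. The direction of Erbb3 relative to Schwann cells therefore depended on which marker was the yardstick, and the part of Schwann cell content in its level was not tested.

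Erbb4, a receptor with an active kinase that binds neuregulins as well as HB-EGF and betacellulin, stood at 8.75, 18.0 and 9.21 CPM, on 649, 1610 and 830 counts. Model was high and the other libraries were close to each other. The ratio was 2.06 for model to sham (interval 1.88 to 2.26), and its log2 value with the added 1 CPM was 0.96, just short of 2-fold. Between AKBA and model it was 0.512 (0.471 to 0.557), and between AKBA and sham 1.05 (0.949 to 1.17), an interval that includes 1. With TMM scaling the log2 ratio of model to sham was 0.76 in place of 0.96. That of AKBA to sham was -0.08 in place of 0.07. Of all genes kept, 277 had a ratio of AKBA to model at least as low as Erbb4.

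Egfr, the receptor of the EGF-type ligands, stood at 156, 133 and 103 CPM, on 11570, 11947 and 9246 counts. The order was sham, model, AKBA from high to low, with ratios of 0.856 for model to sham (interval 0.834 to 0.878), 0.769 for AKBA to model (0.748 to 0.790) and 0.658 for AKBA to sham (0.640 to 0.677). With TMM scaling the log2 ratios of Egfr to sham were -0.44 for model and -0.76 for AKBA, in place of -0.22 and -0.60. This gene count was made up of unlike parts. The transcript NM_031507.1, the only Egfr model that could be placed by its accession, stood at 43.4, 62.2 and 52.4 CPM, so it was higher in both crushed nerves than in sham (ratio 1.43 for model, interval 1.37 to 1.50, and 1.21 for AKBA, 1.15 to 1.26). The log2 ratios of the placed transcript to sham were 0.51 for model and 0.27 for AKBA. On sums of transcripts, all genes kept had medians of 0.19 and 0.17 in these comparisons. The rest of the gene count, on transcripts not placed here, stood at 113, 71.3 and 50.3 CPM. The placed transcript took 27.8% of the Egfr count in sham, 46.6% in model and 51.0% in AKBA, so the direction against sham turned with the transcripts that were counted.

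The neuregulin transcripts were scarce in all 3 nerves. Nrg1, whose product is the main ligand of ErbB3 and ErbB4, stood at 2.55, 1.47 and 1.78 CPM, on 189, 132 and 160 counts. Sham was highest and the crushed nerves were close to each other. The ratio was 0.579 for model to sham (interval 0.460 to 0.727) and 0.697 for AKBA to sham (0.561 to 0.865). For AKBA to model it was 1.20 (0.951 to 1.53), which was not distinguishable from 1 at this depth.

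The transcript models behind those Nrg1 counts differed more than their sum. The annotation offered 16 models, of which 4 were counted in the sham nerve, 5 in the model nerve and 8 in the AKBA nerve. Model XM_017599969.1 took 71.4% of the placed Nrg1 counts in sham (interval 64.4 to 77.8), 42.4% in model (33.9 to 51.3) and 3.77% in AKBA (1.40 to 8.03). Model NM_001271125.1 took 19.0%, 43.2% and 6.29%. Model NM_001271123.1 was listed at 0 for both sham and model and had 92 counts for AKBA, where it took 57.9% (49.8 to 65.6). Models of this gene share most of their exons, the division of reads among them is the authors' estimate from at most 189 counts per library, and a model listed at 0 is not read as an absent transcript. The tables do not name the neuregulin type that a model encodes.

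**Figure D3:**
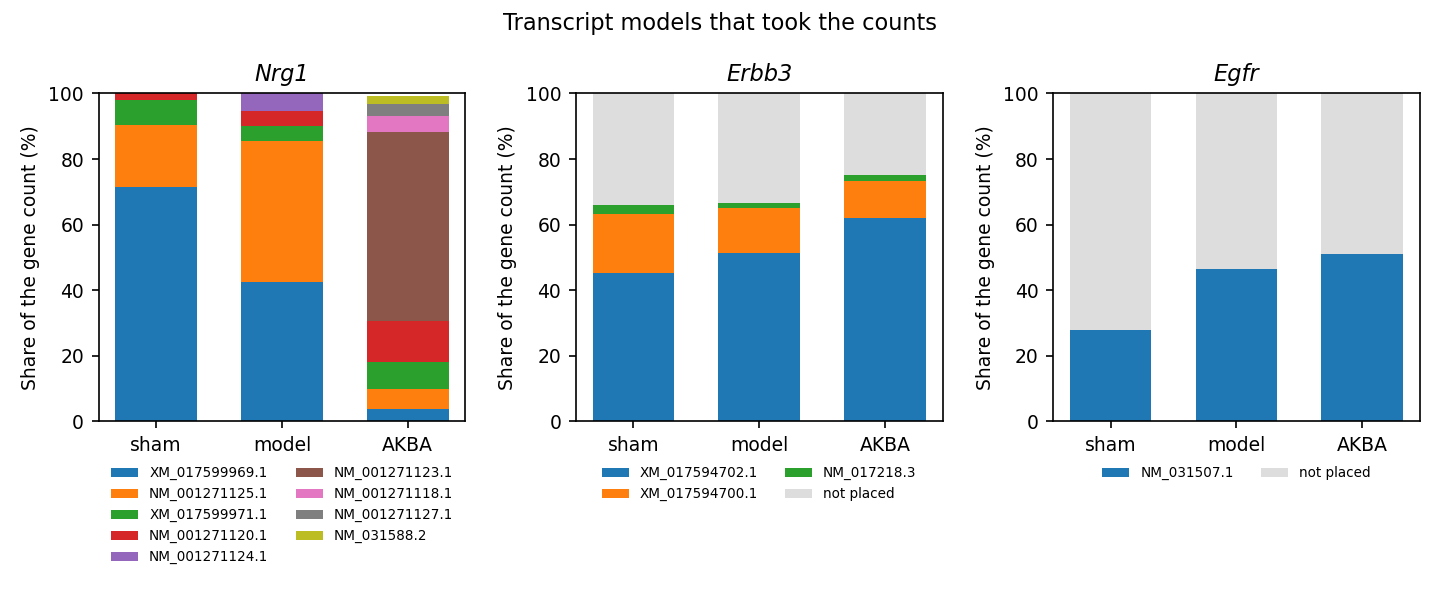
Share in percent of the gene count that each transcript model took for Nrg1, Erbb3 and Egfr in the sham, model and AKBA libraries; grey is the part on transcripts not placed in the gene. The bars of Nrg1 are led by XM_017599969.1 in sham (71.4% of the placed counts) and by NM_001271123.1 in AKBA (57.9% of the placed counts). The placed part of Egfr grows from 27.8% to 51.0%.

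Erbb3 had 3 models with counts. XM_017594702.1 took 68.5%, 77.0% and 82.6% of the placed counts, while XM_017594700.1 took 27.4%, 20.8% and 14.9%. The leading model stood at 52.4, 87.7 and 167 CPM, with a ratio of 3.18 for AKBA to sham (interval 3.07 to 3.30), and XM_017594700.1 stood at 21.0, 23.7 and 30.1 CPM, with a ratio of 1.44 (1.35 to 1.53). The third, NM_017218.3, stood at 3.10, 2.47 and 4.96 CPM, so model was lowest there, with a ratio to sham of 0.796 (0.659 to 0.962). The part of the Erbb3 count on transcripts not placed stood at 39.5, 57.0 and 67.1 CPM, with a ratio of AKBA to model of 1.18 (1.13 to 1.22), against 1.77 (1.73 to 1.82) for the placed part. All 4 parts were highest in AKBA, by unequal amounts.

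Nrg2, a second neuregulin that binds ErbB3 and ErbB4, stood at 0.809, 1.15 and 1.11 CPM, on 60, 103 and 100 counts. The ratio of model to sham was 1.42 (interval 1.03 to 1.99), and that of AKBA to model was 0.965 (0.725 to 1.28), which includes 1, as did the interval of AKBA to sham (0.987 to 1.92). Nrg1 was highest in sham, while Nrg2 was not. The log2 ratio of Nrg2 in model against sham was 0.25, close to the median of 0.18 of all genes kept. With TMM scaling it was 0.14, where that median was -0.02.

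Axons are a source of the neuregulin-1 that Schwann cells read. Only RNA held in the axon or made in the nerve itself can be seen in such tissue. Of the 11 neuron and axon markers 9 were kept, and their list had a median log2 ratio of 0.57 in model against sham and of -0.68 in AKBA against model, with summed levels of 62.6, 120 and 87.5 CPM. Elavl4, a marker of the neuronal cell body, had 0, 7 and 7 counts. The markers did not share an order of libraries, since Uchl1 stood at 13.3, 41.7 and 18.0 CPM, highest in model. The neurofilament genes were split as well. Nefl at 8.55, 10.9 and 17.0 CPM and Nefm at 6.15, 7.32 and 14.1 CPM were highest in AKBA. Nefh, at 1.15, 2.18 and 0.300 CPM, was highest in model and lowest in AKBA. The part of axonal RNA in the level of Nrg1 was not tested.

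Promoter sequence is shown for Hbegf, the ligand with the largest ratio, for its receptor Egfr, and for Areg, the member without a count. They are the bases just before the annotated start, 5′ to 3′ on the gene's strand, from RefSeq on build GRCr8, with 8 of the 10 members present in that table. Capitals mark the GC box GGGCGG and the TATA box TATAAA on either strand.
Hbegf (chr18:28390221-28390470, minus strand): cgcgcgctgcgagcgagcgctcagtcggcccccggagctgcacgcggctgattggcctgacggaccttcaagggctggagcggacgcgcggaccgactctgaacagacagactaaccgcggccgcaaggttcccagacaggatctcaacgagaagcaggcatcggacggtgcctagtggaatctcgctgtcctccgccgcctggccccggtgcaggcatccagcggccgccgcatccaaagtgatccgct
Egfr (chr14:95378376-95378625, plus strand): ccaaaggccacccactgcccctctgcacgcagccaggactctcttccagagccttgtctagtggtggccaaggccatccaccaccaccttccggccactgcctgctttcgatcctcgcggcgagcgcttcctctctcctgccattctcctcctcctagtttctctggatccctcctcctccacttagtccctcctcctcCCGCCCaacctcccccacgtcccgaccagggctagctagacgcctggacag
Areg (chr14:17265642-17265891, minus strand): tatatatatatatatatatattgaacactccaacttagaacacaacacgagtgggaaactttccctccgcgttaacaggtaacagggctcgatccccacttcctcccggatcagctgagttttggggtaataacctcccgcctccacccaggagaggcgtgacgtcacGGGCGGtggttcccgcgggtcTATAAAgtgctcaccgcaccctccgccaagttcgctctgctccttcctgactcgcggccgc

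Of the 8 members with a sequence, 7 had a GC box in the 250 bases before the start and Hbegf had none, while 30.5% of the 33469 promoters in the table had one. In Erbb2 and Tgfa, only 140 and 80 bases of that window lay ahead of the outermost annotated start of the gene. Those bases held no GC box. Areg was the only one with a TATA box, which 12.9% of all promoters had. Neither the AP-1 element TGANTCA (6.34% of all promoters) nor the SOX element ACAAAG (16.3%) was found in any of the 8 windows. These matches describe letters and no binding was measured.

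Hbegf encodes heparin-binding EGF-like growth factor, which is shed from the membrane and activates EGFR and ErbB4. It stood at 14.2, 56.3 and 32.0 CPM, on 1052, 5035 and 2885 counts. Model was far above both other libraries, and AKBA lay between model and sham. The ratio was 3.97 for model to sham (interval 3.71 to 4.24), and 51 of the 14427 genes kept had a ratio at least as high. Between AKBA and model it was 0.569 (0.544 to 0.596). AKBA remained above sham by 2.26 (2.10 to 2.43), which with TMM scaling was a log2 ratio of 0.97 and so short of 2-fold.

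Tgfa encodes transforming growth factor alpha, another membrane-anchored ligand of EGFR. It stood at 26.5, 59.2 and 36.8 CPM, on 1964, 5295 and 3317 counts, and so had the same order of libraries as Hbegf. The ratio was 2.23 for model to sham (interval 2.12 to 2.35), 0.622 for AKBA to model (0.596 to 0.650) and 1.39 for AKBA to sham (1.32 to 1.47). With TMM scaling the log2 ratio of model to sham was 0.92, short of 2-fold. Hbegf differed by more than Tgfa, since counts of Hbegf per count of Tgfa were 0.536 in sham (interval 0.497 to 0.578), 0.951 in model (0.915 to 0.989) and 0.870 in AKBA (0.827 to 0.914).

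Other cell types differed between these libraries as well. All 8 mast cell markers were kept with none at 0, and their summed level was 201, 285 and 102 CPM. In AKBA against model 8 of 8 were below 0 (median -1.14), where 57.5% of all genes kept were. The 9 macrophage markers summed to 2124, 1585 and 2135 CPM with none at 0, a sum led by Lyz2 at 1038.5, 387.4 and 1195.5 CPM. Of these 9, 7 were above 0 in model against sham (median 0.10), where 71.0% of all genes kept were, so the sum does not describe the list. The 8 fibroblast and perineurial markers summed to 25608, 21374 and 27379 CPM, none of them at 0. Of these 8, 3 were above 0 in model against sham (median -0.14), where 71.0% of all genes kept were. These were Cldn1 (187, 323 and 227 CPM), Itgb4 (507, 1194 and 922 CPM) and Slc2a1 (82.5, 166 and 146 CPM). They had the order of libraries of Hbegf and Tgfa. Dcn, Lum, Col1a1 and Col1a2 were instead lowest in model, with Col1a1 at 12667, 10406 and 15348 CPM. The part of these cells in the levels of both ligands was not tested.

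Seen against the gene count of their receptor, both ligands were higher in the crushed nerves. Hbegf had 0.0909 counts per count of Egfr in sham, 0.421 in model and 0.312 in AKBA. For Tgfa these values were 0.170, 0.443 and 0.359. Per count of the placed Egfr transcript alone the differences were smaller, at 0.327, 0.905 and 0.612 counts of Hbegf and 0.610, 0.952 and 0.703 counts of Tgfa.

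Btc, the gene of betacellulin, a ligand of EGFR and ErbB4, stood at 0.539, 0.637 and 1.52 CPM, on 40, 57 and 137 counts, and was below the level filter. AKBA was high and the other libraries were not distinguishable from each other, with a ratio of model to sham of 1.18 (interval 0.775 to 1.82). The ratio of AKBA to model was 2.39 (1.74 to 3.31), whereas with the added 1 CPM its log2 value was 0.62. Markers of epidermis and hair moved in the same direction, with summed levels of 17.1, 18.3 and 139 CPM over 16 genes. Of these markers, 5 were at 0 in sham (Krt15, Krt17, Krt25, Krt27 and Lor), 2 in model (Krt15 and Krt25) and none in AKBA, where the hair follicle gene Tchh reached 69.0 CPM. Their part in the level of Btc was not tested.

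Areg, the gene of amphiregulin, a further ligand of EGFR, had 0 counts in each library. With 3 counts as the limit that a count of 0 allows, its level was at most 0.0404, 0.0335 and 0.0333 CPM. Since the tables hold genes at 0 in one library and clearly counted in another, such as the adaptor gene Crkl with 721, 0 and 975 counts, the zeros of Areg are not read as absence.

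The remaining ligands of the family were 5 further genes, of which 2 passed the level filter. Nrg4, a neuregulin that binds ErbB4 and is known as a secreted product of fat, stood at 5.12, 3.70 and 1.14 CPM, on 380, 331 and 103 counts. It was at least 2-fold lower in AKBA than in model, with a ratio of 0.309 (interval 0.245 to 0.387), and in AKBA than in sham (0.223, 0.178 to 0.278). All 9 adipocyte markers were kept with none at 0, and 9 of 9 were below 0 on the log2 scale in AKBA against model, with a median of -0.79. Of all genes kept, 57.5% were below 0 in that comparison. Their part in the level of Nrg4 was not tested. Egf, the founding ligand of EGFR, stood at 4.07, 5.17 and 5.46 CPM. Epgn had 25, 6 and 0 counts, and Nrg3 and Ereg had none in any library.

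The genes that cut ligands free, pass the signal on or limit the receptors are given by list. Of the 9 genes of sheddases and ligand processing, 0 were at least 2-fold apart in any comparison. Of all genes kept, 5.83% were so in model against sham, 4.05% in AKBA against model and 7.91% in AKBA against sham, so few were to be found among 9 genes. The furthest of the 9 was Bace2, a relative of the neuregulin-cutting protease Bace1, at 45.1, 77.8 and 63.8 CPM. Bace1 itself stood at 24.7, 36.2 and 29.5 CPM, and Adam17, which releases TGF-alpha and other EGFR ligands, at 117, 126 and 161 CPM. Median log2 ratios of model to sham were 0.10 for this list, 0.13 for 10 adaptors, 0.21 for 15 genes of the PI3K and AKT branch, 0.24 for 10 genes of the ERK branch, 0.13 for 6 genes of the calcium branch and 0.21 for 16 receptor inhibitors and partners. All genes kept had a median of 0.18 in the same comparison. In AKBA against sham, where all genes had 0.16, the medians were 0.40, 0.10, 0.14, 0.30, -0.02 and 0.11 in the same order of lists.

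Within those branches, Crkl was the only gene past 2-fold, through its 0 in model, and no ratio is given for it. The shares of all genes kept were 5.83% in model against sham, 4.05% in AKBA against model and 7.91% in AKBA against sham. In the ERK branch the furthest was the kinase gene Braf, at 64.1, 32.3 and 50.9 CPM, with a ratio of model to sham of 0.504 (interval 0.481 to 0.528), which with TMM scaling was a log2 ratio of -1.18 and so past 2-fold. In the PI3K and AKT branch it was Tsc1, a brake on mTOR, at 22.5, 20.7 and 37.4 CPM, with a ratio of AKBA to model of 1.80 (1.71 to 1.91). In the calcium branch it was Nfatc4, at 16.5, 22.2 and 21.1 CPM.

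Among 16 kept genes of receptor inhibitors and partners, Errfi1 was the only one at least 2-fold apart. It was so in model against sham, as were 5.83% of all genes kept, and in AKBA against sham, as were 7.91%. Errfi1 encodes an inhibitor. Its product, also called MIG6, binds the kinase domain of EGFR and ErbB2 and shuts it off as a feedback inhibitor. Errfi1 stood at 46.3, 102 and 127 CPM, on 3436, 9155 and 11477 counts. Both crushed nerves were well above sham, with a ratio of 2.21 for model (interval 2.12 to 2.30) and 2.75 for AKBA (2.65 to 2.86). With TMM scaling its log2 ratios to sham were 0.91 for model, short of 2-fold, and 1.28 for AKBA. Unlike Hbegf and Tgfa it was not lower in AKBA than in model, where the ratio was 1.25 (1.21 to 1.28). Counts of Errfi1 per count of Egfr were 0.297, 0.766 and 1.24, and per count of the placed Egfr transcript alone they were 1.07, 1.65 and 2.43. The other inhibitors stayed under 2-fold, among them Lrig1, which promotes receptor degradation, at 61.8, 73.9 and 84.8 CPM, and Rnf41, a ubiquitin ligase that removes ErbB3, at 39.5, 62.5 and 59.6 CPM.

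**Figure D4:**
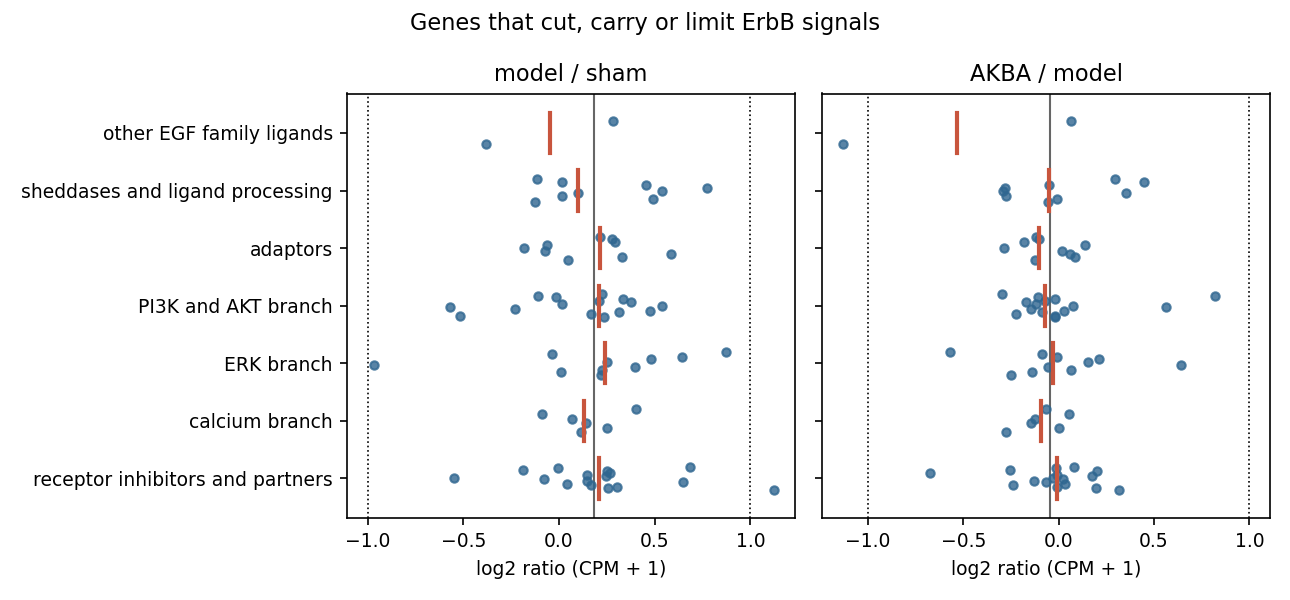
Log2 ratio of (CPM + 1) for genes of 7 pathway lists in model against sham and AKBA against model, 1 point per gene kept that had counts in every library, so that Crkl is left out. Red bars are list medians of the points shown, the grey line is the median of all genes kept and dotted lines mark 2-fold. Errfi1 is the point past 2-fold on the left and Nrg4 the one on the right.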

How the data were processed

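The authors deposited raw counts, that is, unnormalized whole numbers for each gene and each transcript, with a column per library. In the model column each count was followed by 2 extra text characters, which were removed; that column was entered with the unit other for this reason. Columns were assigned to groups by the key given with the series. Tools listed in the submitters' processing notes, with no roles, are HISAT2, StringTie, limma, DESeq2 and bcl2fastq 2.0, and these notes give the mouse build mm10, although the identifiers are those of rat. The counter, the strand setting and the handling of shared reads are not stated in the sources used.

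From the counts, CPM was computed on the library total. Ratios for the 2-fold rule are log2 of (CPM + 1), which understates low genes; plain ratios have exact Clopper-Pearson limits. A gene was kept if its mean reached 1 CPM. PCR copies are not independent molecules, so intervals and floors (3 counts) cover counting error only. At 95% confidence, precision ran from 1.54 to 1.61 around a ratio of 1.57 for Erbb3 to 0.775 to 1.82 around 1.18 for Btc. Transcripts were placed by accession (32086 of 55767) with the RefSeq gene table of GRCr8, used for names only. The members, the 7 pathway lists and the 8 marker lists were chosen with earlier results of these data known. All members are named; within a pathway list, genes at least 2-fold apart are named, or else the gene furthest from 0; others named there (Bace1, Adam17, Egf, Epgn, Nrg3, Ereg, Lrig1 and Rnf41) were chosen after their values were seen. The ratio step was tested on simulated data. Alternatives were other pseudocounts, filters, scalings (TMM, RLE and upper quartile, edgeR 4.0.16), totals without ribosomal RNA and sums of transcripts. The lncRNA tables were not used here. Python 3.11.15, pandas 2.3.3 and scipy 1.17.1 were used.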

Additional observations from a re-analysis of the deposited data

How the results depend on the processing

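No paired analysis was possible because each group has 1 library, so no library could be left out either. In model against sham, members at least 2-fold apart numbered 2, and 1 with TMM, RLE and upper quartile scaling; in AKBA against sham they numbered 3, and 1 with the same scalings. Of all genes, 5.83% were 2-fold apart in model against sham, and 4.64%, 4.72% and 4.69% with these scalings; in AKBA against sham 7.91% were, and 7.03%, 7.02% and 7.02%. In AKBA against model the number was 0 in all 9 other settings. The median member log2 ratio of model against sham was 0.74, and 0.53 with TMM, 0.55 with RLE, 0.55 with upper quartile scaling, 0.63 without ribosomal RNA in the totals, 0.40 with no filter and 0.95 at 5 CPM. At 5 CPM, which leaves 6 members, the median was -0.52 between AKBA and model and 0.79 between AKBA and sham. The filters change which members enter. With sums of transcripts the log2 ratio of Egfr changed sign, from -0.22 to 0.51 for model against sham and from -0.60 to 0.27 for AKBA against sham. At a pseudocount of 0.1 CPM, Btc passed 2-fold in AKBA against model (1.14) and against sham (1.34), and Erbb4 in model against sham (1.03). With Erbb4, members 2-fold apart in model against sham numbered 3 at that pseudocount, where 8.57% of all genes were. Totals without ribosomal RNA put Nrg2 at 0.0001 in AKBA against model, from -0.03. Depth limits Nrg1, Nrg2 and Btc, which rest on at most 189 counts in a library.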
